A study of Mus musculus with 4 samples.

Results

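Oxidative phosphorylation was followed through 107 genes in single cells of mouse islets of Langerhans. The genes were taken by symbol from the 32285 genes counted: those whose symbols begin with Nduf and a subunit letter, Sdha to Sdhd, Uqcr, Cox4 to Cox8, Atp5, and the mitochondrially encoded mt-Nd, mt-Co, mt-Cytb and mt-Atp genes. They comprised 86 nuclear subunit genes, 13 genes of the mitochondrial genome and 8 Ndufaf genes, which encode assembly factors of complex I and are not subunits. The nuclear subunits were 37 of complex I, 4 of complex II, 8 of complex III, 20 of complex IV (Ndufa4 and Ndufa4l2 counted here) and 17 of complex V. Ndufb1-ps, counted among the 37 of complex I by its symbol, is annotated in GENCODE as a bidirectional promoter lncRNA and not as protein-coding. Complexes I to IV pass electrons from NADH and succinate to oxygen. Complexes I, III and IV pump protons across the inner mitochondrial membrane, and complex V, the ATP synthase, uses that gradient to make ATP. Subunits of complexes I, III, IV and V are encoded in both genomes, whereas complex II is nuclear only. In beta cells the ATP made from glucose closes potassium channels and so links glucose to insulin release.

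The 4 libraries, 1 per group, came from CCR2-DTR+/- mice at 6 months, WT (CCR2-DTR-/-) littermates at 6 months, CCR2-DTR+/- mice at 1 month and WT littermates at 1 month. All were females on a C57b6/J background and all, WT included, had been given diphtheria toxin as newborns (4 injections at intervals of 48 h from postnatal day 2). CCR2-DTR places the toxin's receptor on cells that express CCR2, chiefly monocytes and cells derived from them. Each library pooled 300 islets of 2 to 3 females, so differences between genotypes or ages have no replicates and no test, and they include any difference between animals and library preparations. After filtering, 25216 cells remained, 3624 to 8736 per library, with median depths between 8850 and 14767 unique molecular identifiers (UMIs). Pairs of libraries shared 6 to 34 barcodes, at most 0.422% of the smaller library. The filter at 15% mitochondrial UMIs uses genes described here: it applied to 23.9% and 12.2% of the barcodes listed for the CCR2-DTR and WT libraries at 6 months, and to 18.4% and 9.37% at 1 month.

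Cells were clustered without the 107 genes, and 18121 cells fell into 5 classes named from markers: beta-like (7080 cells), alpha-like (6441), delta-like (2100), endothelial-like (1953) and macrophage-like (547). Each class carried its defining marker in every library. Ins2 took 303377 to 351983 CPM (UMIs per 1000000 UMIs of the class) in beta-like cells, Gcg 264016 to 301069 in alpha-like cells and Sst 93973 to 107634 in delta-like cells, while Pecam1 was at 1191 to 1304 CPM in endothelial-like and C1qa at 3425 to 5082 CPM in macrophage-like cells. Since insulin alone made up 42.6% to 49.98% of beta-like UMIs, levels below are CPM of the UMIs outside 8 hormone genes (hormone-free CPM). Free RNA was visible in the other classes. Insulin UMIs were 3.76% to 6.09% of the total in endothelial-like cells and 3.36% to 8.46% in macrophage-like cells. UMI counts are not scaled by transcript length, so levels are compared between classes and groups for the same gene or sum, not between genes. Many of these genes have processed pseudogenes or near-identical copies, and counts are uncertain where reads are shared.

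Beta-like cells had the highest sum of mitochondrially encoded UMIs of the 5 classes in each of the 4 libraries. The 13 mt genes together were at 133452 and 124147 hormone-free CPM in CCR2-DTR and WT beta-like cells at 6 months, and at 132717 and 131266 at 1 month. Alpha-like cells had 64257 and 62120 at 6 months and 73960 and 71406 at 1 month, and delta-like cells 57352 and 54937 at 6 months and 62692 and 59466 at 1 month, so beta-like values did not overlap those of the other endocrine classes. On this scale endothelial-like cells were the lowest class in every library, at 40506 to 47258, with macrophage-like cells at 45925 to 59503. The delta-like range overlapped those of alpha-like and macrophage-like cells, and these last did not overlap each other. The order below beta-like cells depended on scaling. With the TMM scaling factors of the tests below, delta-like cells (44411) were below endothelial-like cells (45984) in WT at 6 months. Macrophage-like cells (62195 to 73641) then overlapped alpha-like cells (59388 to 68864), and beta-like cells stayed highest (112964 to 127124). As a share of all UMIs, alpha-like cells were lowest in WT at 6 months (4.07%, against 4.12% in endothelial-like cells).

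The 86 nuclear subunit genes differed less between the endocrine classes. Their summed level was 19764 and 19757 hormone-free CPM in CCR2-DTR and WT beta-like cells at 6 months and 20774 and 23382 at 1 month, and it ranged over 18254 to 19203 in alpha-like and 17913 to 20459 in delta-like cells. On this scale endothelial-like and macrophage-like cells were lower in every library, at 11926 to 12788 and 12487 to 14846. This order also depended on scaling. With the TMM factors, macrophage-like cells (16468 to 18731) were above delta-like cells (14573 to 17092) in each library. They were also above alpha-like cells (18185) in WT at 1 month, while endothelial-like cells stayed lowest. As a share of all UMIs, beta-like cells were lowest (0.927% to 1.05%, against 1.09% to 1.19% in endothelial-like cells). The number of mt-encoded UMIs per nuclear OXPHOS UMI was 6.75 and 6.28 in CCR2-DTR and WT beta-like cells at 6 months and 6.39 and 5.61 at 1 month. In the other classes it lay between 2.91 (delta-like, WT, 1 month) and 4.24 (macrophage-like, CCR2-DTR, 1 month), so each of the 4 beta-like values stood above all of them. The ratio compares classes only, since mt and nuclear transcripts are not counted on a length scale.

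**Figure D1:**
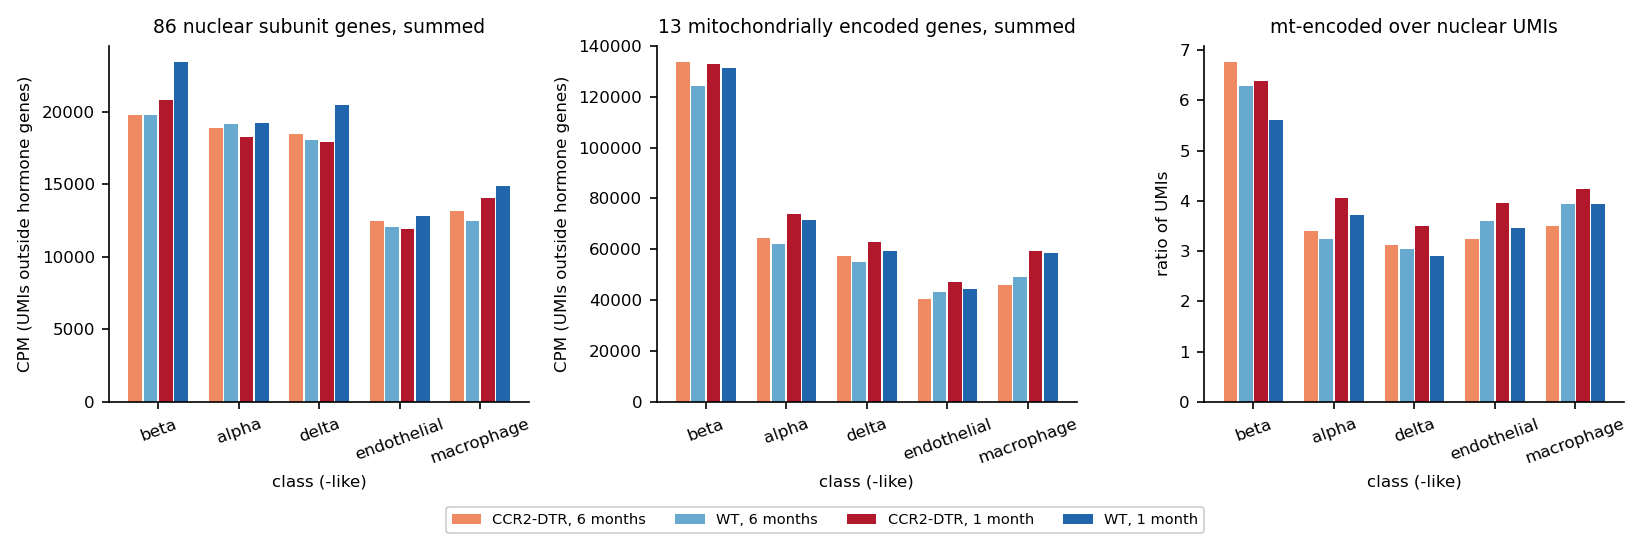
Summed levels of the 86 nuclear subunit genes (left) and of the 13 mt-encoded genes (middle), in CPM of UMIs outside hormone genes, and the ratio of mt-encoded to nuclear UMIs (right), by class; each bar is 1 library, with no error because each is a single pool. The mt-encoded bars of beta-like cells sit between 124147 and 133452 CPM, above every other class, while the nuclear bars of the 3 endocrine classes lie close together.

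Promoter sequence was searched for the letters of factors that act on this pathway. NRF1 and the ETS factor GABPA (also called NRF2) are known regulators of nuclear OXPHOS genes. RefSeq promoters (250 bases before to 50 after the start, GRCm38.p6) were at hand for 75 of the 107 members. Searched on both strands, the 8-letter NRF1 core GCATGCGC was present in 12 of them (16% of members), against 3.05% of 27025 promoters of all genes, and the longer form with GC before the core, which contains the core on both strands, in 7 (9.33% against 1.07%). The ETS letters CCGGAAG were in 19 (25.3% against 9.93%). By contrast CCAAT was in 45.3% of members and 41.1% of all promoters, and TATAAA in 10.7% and 15.7%. Atp5k, Atp5l, Cox6a1, Sdhb and Uqcr11 held both the NRF1 core and the ETS letters. These matches are descriptions of sequence and not evidence of binding. Of these 5, the promoters of Cox6a1, a ubiquitous complex IV subunit gene, Atp5k, an ATP synthase subunit gene, and Uqcr11, a complex III subunit gene, are shown, since the results below return to these genes. Capitals mark the NRF1 letters and the ETS letters (CCGGAAG or its complement CTTCCGG), 5' to 3' on the gene's own strand. The windows are chr5:115348909-115349208 (minus strand) for Cox6a1, chr5:108434350-108434649 (minus strand) for Atp5k and chr10:80406772-80407071 (minus strand) for Uqcr11.
Cox6a1: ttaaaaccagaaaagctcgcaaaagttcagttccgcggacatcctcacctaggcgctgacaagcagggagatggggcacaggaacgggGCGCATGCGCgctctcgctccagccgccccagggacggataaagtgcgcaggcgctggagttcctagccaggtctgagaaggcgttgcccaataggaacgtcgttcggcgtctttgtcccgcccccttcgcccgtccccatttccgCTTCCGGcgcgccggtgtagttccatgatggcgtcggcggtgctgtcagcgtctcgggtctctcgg
Atp5k: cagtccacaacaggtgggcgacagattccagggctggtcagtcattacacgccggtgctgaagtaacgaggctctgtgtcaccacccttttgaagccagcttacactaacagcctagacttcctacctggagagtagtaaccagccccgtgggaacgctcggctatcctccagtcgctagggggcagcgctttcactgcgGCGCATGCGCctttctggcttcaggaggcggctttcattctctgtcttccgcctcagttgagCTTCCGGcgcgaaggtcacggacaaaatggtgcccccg
Uqcr11: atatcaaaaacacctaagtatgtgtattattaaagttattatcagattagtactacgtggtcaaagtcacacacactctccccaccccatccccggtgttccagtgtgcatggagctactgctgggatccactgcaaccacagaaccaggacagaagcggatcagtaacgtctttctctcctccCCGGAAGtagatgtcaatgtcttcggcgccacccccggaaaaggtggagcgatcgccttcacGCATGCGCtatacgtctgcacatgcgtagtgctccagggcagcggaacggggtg
In Cox6a1 and Atp5k the NRF1 letters lie upstream of the ETS letters, and in Uqcr11 the order is reversed.

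Class differences were tested with edgeR's quasi-likelihood test on 20 class-by-library sums with the library as a block, with Benjamini-Hochberg adjustment over 13859 genes. The 4 libraries here are replicates of the class difference, and all classes share them. Of the 107 members, 103 passed the filter on low counts. Cox7a1, Cox7b2, Cox8b and Cox8c did not: Cox8c had 0 UMIs in every class, and Cox7a1, the heart and muscle form of its subunit, reached at most 43 UMIs in a class and library. Levels in these tests are CPM with TMM scaling factors, given as mean ± SD over 4 libraries, and a positive log2 fold change means higher in the class named first.

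Between beta-like and alpha-like cells, 47 of 103 members were higher and 14 lower in beta-like cells (adjusted p under 0.05), where 29.4% of all genes were higher and 28.6% lower. All 13 mt genes were among those higher. Their median log2 fold change was 0.88, against -0.01 over all genes, and the largest were mt-Atp6 (1.02), a membrane subunit of ATP synthase, and mt-Co2 (1.02) of cytochrome c oxidase, with mt-Nd4l (0.60) the smallest. mt-Co2 averaged 17800 ± 1129 TMM-adjusted CPM in beta-like and 8810 ± 718 in alpha-like cells, and was higher in 4 of 4 libraries (edgeR adjusted p = 2.29e-12). Of 82 nuclear subunits tested, 31 were higher and 13 lower, with a median of 0.07. When all UMIs, hormones included, were used as the total, the median gene itself moved to -0.50 and the nuclear median to -0.42. The nuclear subunits then changed sign but stayed 0.08 above the median gene, while the mt genes stayed positive at 0.39. With that total 18 members were higher and 66 lower, against 47 and 14.

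By complex, the counts stand beside the 29.4% of all genes higher and 28.6% lower, and differences between complexes were not tested. In complex I, which takes electrons from NADH, 16 of 37 subunits were higher in beta-like than in alpha-like cells and 1 was lower. Of its core subunits, Ndufs8 (log2 fold change 0.34), Ndufs3 (0.30) and Ndufs7 (0.22) were higher, whereas Ndufv2 (0.02), Ndufs1 (0.02) and Ndufv1 (0.01) did not pass the test. The lower gene was Ndufa6 (-0.65), an accessory subunit. In complex II, Sdhc (0.76), a membrane anchor, and Sdha (0.55), the flavoprotein, were higher and Sdhd (-0.58), the other anchor, was lower; Sdhb (0.10), the iron-sulfur subunit, did not pass.

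In complex III, 2 of 8 were higher and 3 lower in beta-like than in alpha-like cells, the lower ones including Uqcrfs1, the Rieske iron-sulfur protein (-0.49), and Uqcrc2 (-0.23), a core subunit. In complex V, 3 of 17 were higher and 6 lower. The counts of both complexes lay near the shares of all genes. The 3 genes for the identical c-ring subunit split: Atp5g1 was higher (459 ± 122 in beta-like against 250 ± 28.9 TMM-adjusted CPM in alpha-like cells, log2 0.85), Atp5g3 was slightly higher (0.23) and Atp5g2 was lower (-0.41). The catalytic beta subunit gene Atp5b (-0.24) and the gamma subunit gene Atp5c1 (-0.46) were lower, and the alpha subunit gene Atp5a1 (0.20) was higher. The adjusted p of several small differences rose above 0.05 when 1 library was left out, so these no longer passed the test. Atp5a1 was then at 0.19 without CCR2-DTR and 0.18 without WT at 1 month, Atp5g3 at 0.19 and 0.13, and Cox6a1 at 0.18 and 0.09. Atp5b was at -0.20 without CCR2-DTR and -0.23 without WT at 6 months, Uqcrc2 at -0.19 without WT at 6 months, Ndufs3 at 0.26 without CCR2-DTR at 1 month and Ndufs7 at 0.16 without WT at 1 month. Among the Ndufaf assembly factors 3 of 8 were higher and 1, Ndufaf2 (-0.26), was lower.

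Complex IV, which reduces oxygen, held the widest differences. Cox6a2, the heart and muscle isoform of subunit VIa, had 281.6 and 317.2 hormone-free CPM in CCR2-DTR and WT beta-like cells at 6 months and 367 and 433.5 at 1 month, against 10.2, 8.62, 17.6 and 8.38 in alpha-like cells in that order. Every beta-like value was above every value of the other 4 classes, the highest of which was 49.5 in CCR2-DTR macrophage-like cells at 1 month. The log2 fold change was 4.99 against alpha-like (SE 0.19, adjusted p = 2.1e-14) and 4.65 against delta-like cells (SE 0.20, adjusted p = 2.05e-13). There were 0.281 to 0.436 Cox6a2 UMIs per 1000 insulin UMIs in beta-like and 0.383 to 0.476 in alpha-like cells. In delta-like cells there were 0.207 to 0.379, in endothelial-like 0.301 to 0.416 and in macrophage-like 0.282 to 0.685. The ranges overlapped that of beta-like cells, with delta-like values below the beta-like one in each library and the widest gap in WT at 6 months (0.685 in macrophage-like against 0.3105 in beta-like cells). The part of free RNA in the Cox6a2 counts outside beta-like cells was not tested. The ubiquitous isoform Cox6a1 differed little between beta-like and alpha-like cells (0.20).

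Cox5a, which encodes a nuclear subunit bound to the core of complex IV, was also higher in beta-like than in alpha-like cells (175 ± 33.3 against 63.8 ± 12.9 TMM-adjusted CPM, log2 1.45, adjusted p = 1.18e-10) and in all 4 libraries. Ndufa4, first described as a complex I protein and now placed in complex IV, was 0.75 higher, with Cox7b at 0.49, Cox7a2l, a supercomplex factor, at 0.48 and Cox8a at 0.27. Cox6b2, the testis isoform of subunit VIb, was 2.39 lower but rested on 0 to 13 UMIs per library in beta-like and 9 to 29 in alpha-like cells. Its common isoform Cox6b1 (-0.14), Cox7a2 (0.09) and Cox4i1 (-0.09) did not pass the test.

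Against delta-like cells the beta-like excess was wider in membership: 70 of 103 members were higher and 3 lower in beta-like cells, where 27.7% of all genes were higher and 26.9% lower. Complex I had 25 of 37 higher and 0 lower, complex II 4 of 4, complex III 3 of 8 with 1 lower, complex IV 11 of 16 tested with 1 lower and complex V 13 of 17 with 0 lower. The nuclear median was 0.26 and the median of all genes 0.01; with all UMIs as the total these became -0.57 and -0.82, so the nuclear sign turned while the distance to the median gene stayed at 0.25. With that total 15 members were higher and 81 lower, against 70 and 3. The mt genes had a median of 1.37 (0.54 with all UMIs), led by mt-Nd3 (1.81), mt-Nd2 (1.63) and mt-Nd5 (1.56), complex I subunits all. mt-Nd3 averaged 1853 ± 400 TMM-adjusted CPM in beta-like and 524 ± 91.0 in delta-like cells (adjusted p = 8.85e-15). mt-Nd6, the only member transcribed from the light strand, did not pass (57.6 ± 13.6 against 54.9 ± 12.2, log2 0.07, adjusted p = 0.564).

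Among the nuclear genes that were higher in beta-like than in delta-like cells, Cox5a was at 0.97, Atp5g1 at 0.85 and Sdhc at 0.68. The 3 lower ones were Cox6b2 (-3.37), the assembly factor Ndufaf2 (-0.53) and Uqcrfs1 (-0.25). Uqcrfs1 no longer passed without WT at 1 month (-0.24), CCR2-DTR at 6 months (-0.20) or WT at 6 months (-0.23). Small differences in Atp5b, Atp5g3, Cox7a2, Ndufs8 and Ndufv2 also fell below the threshold without 1 of the 1-month libraries. For Ndufv2 the value was then 0.10 without CCR2-DTR and 0.20 without WT.

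**Figure D2:**
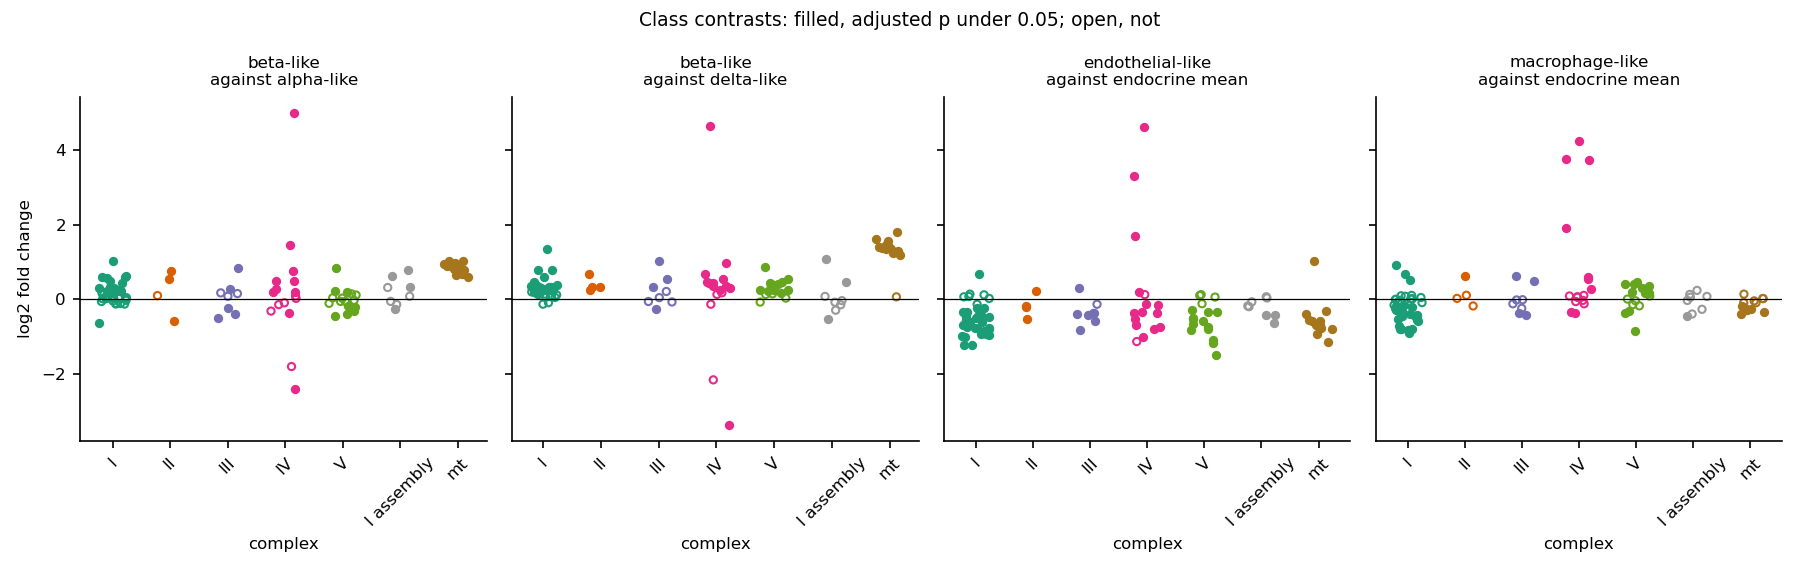
log2 fold change of each member tested, by complex, in the 4 class contrasts (vertical axis: first class over second, hormone genes left out, TMM scaling); filled points have an edgeR adjusted p under 0.05 and open points do not. The mt-encoded genes lie above 0 in beta-like against alpha-like and delta-like cells, with mt-Nd6 open in the second panel, and most members of complexes I, III and V lie below 0 in endothelial-like cells; with all UMIs as the total, the nuclear medians of the first 2 panels turn negative while staying above the median gene.

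Endothelial-like cells were set against the endocrine mean, the average of the log levels of the 3 endocrine classes. Of 103 members 77 were lower and 8 higher, where 40.4% of all genes were lower and 37.2% higher. Complex I had 30 of 37 lower, complex V 13 of 17, complex III 6 of 8, complex IV 10 of 16 tested and the mt genes 12 of 13. The nuclear median was -0.45 and the mt median -0.68, against -0.08 over all genes. With all UMIs as the total these became -0.08, -0.31 and 0.30, so the members stayed below the median gene by similar amounts and the counts were 47 lower and 28 higher. The lowest were Atp5md (-1.48), Ndufb2 (-1.23), Ndufa1 (-1.22), Atp5e (-1.18) and mt-Nd5 (-1.14), small or accessory subunits apart from mt-Nd5, a proton-pumping subunit. Atp5md averaged 70.7 ± 11.2 TMM-adjusted CPM in endothelial-like cells and 199 ± 30.2 over the endocrine classes (adjusted p = 1.44e-11).

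The 8 members higher in endothelial-like cells were Cox4i2, Ndufa4l2, Cox5a, mt-Nd6, Ndufa8, Uqcrc1, Sdhb and Ndufa4. Cox5a was at 320 ± 32.2 TMM-adjusted CPM in endothelial-like cells and 109 ± 18.7 over the endocrine classes (log2 1.69, adjusted p = 5.88e-14), and was higher in 4 of 4 libraries. mt-Nd6 was at 94.3 ± 24.6 and 47.8 ± 10.2 (1.02, adjusted p = 2.4e-10), against the direction of the other 12 mt genes. Its 3' end overlaps mt-Nd5 by 14 bases on the opposite strand, and whether strand was used in counting is not given in the sources used here. Ndufa8 (0.67), Uqcrc1 (0.29), Sdhb (0.22) and Ndufa4 (0.18) were smaller. Without the CCR2-DTR library at 6 months Uqcrc1 (0.24), Sdhb (0.20) and Ndufa4 (0.13) no longer passed, and the number higher dropped to 5. Ndufa4 also fell short without WT at 6 months (0.16) or WT at 1 month (0.19). With the implied free RNA subtracted, 3 members were higher.

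Cox4i2, the hypoxia-linked isoform of subunit IV, and Ndufa4l2, a hypoxia-inducible paralog of Ndufa4, had large fold changes on few counts. Cox4i2 had 6, 3, 11 and 11 UMIs in endothelial-like cells (CCR2-DTR and WT at 6 months, then at 1 month), an average of 3.34 ± 1.28 against 0.150 ± 0.191 TMM-adjusted CPM (log2 4.61). Ndufa4l2 had 8, 6, 19 and 11 UMIs (4.71 ± 1.3 against 0.487 ± 0.262). In the 871 mesenchymal-like cells of the same libraries Cox4i2 reached 359.4, 644.2, 393.7 and 475.8 hormone-free CPM, and Ndufa4l2 796, 1447, 1215 and 1275. Markers of that class were present among the endothelial-like cells: 6 to 8 of its 8 markers had a UMI, with a summed level of 52.0 to 94.95 hormone-free CPM, against 16290 to 19020 in mesenchymal-like cells. Col1a1 and Dcn were at 0 in WT at 1 month, and Pdgfrb and Dcn in WT at 6 months. The part of mesenchymal RNA in the endothelial-like values was not tested.

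In macrophage-like cells, 22 of 103 members were higher and 37 lower than the endocrine mean, where 31.8% of all genes were higher and 33.4% lower. Complex I was mostly lower, with 22 of 37 lower and 3 higher, and led by Ndufb2 (-0.90), Ndufa1 (-0.83), Ndufb11 (-0.81) and Ndufa5 (-0.79). Complex IV had 7 of 16 tested higher and 2 lower, and complex V 9 of 17 higher and 3 lower, of which Atp5md (-0.84) was the lowest. The medians were -0.25 in complex I, 0.10 in complex IV and 0.16 in complex V, against -0.11 over all genes. The nuclear median was -0.03, and its sign turned with all UMIs as the total (0.01, median gene -0.05) and with DESeq2 (0.01, median gene -0.05), while it stayed 0.06 to 0.08 above the median gene in these fits. Of the mt genes 7 were lower and 0 higher. The differences between complexes were not themselves tested.

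Cox5a was again higher, at 370 ± 58.3 TMM-adjusted CPM in macrophage-like cells and 109 ± 18.7 over the endocrine classes (log2 1.91, adjusted p = 7.4e-14). In complex I, where most called subunits were lower, Ndufa9 (0.92) and Ndufa3 (0.67), accessory subunits, and the core subunit Ndufs8 (0.53) were higher, while the core subunit Ndufs1 (-0.54) was lower. Also higher were Uqcrc1 (0.64) of complex III, Sdhb (0.63), the only complex II gene that passed, Cox4i1 (0.61) and Cox7a2l (0.53) of complex IV and Atp5c1 (0.40) of complex V. Cox6b2 was 3.75 higher on 7 to 10 UMIs per library. Cox4i2 (4.23) and Ndufa4l2 (3.73) passed the test although they were higher in 2 of 4 libraries only. Cox4i2 had 0, 1, 0 and 6 UMIs and Ndufa4l2 10, 0, 0 and 9, in CCR2-DTR and WT at 6 months and CCR2-DTR and WT at 1 month. Of the 8 mesenchymal markers, 7, 3, 4 and 7 had a UMI in those libraries, with summed levels of 49.0, 11.6, 10.1 and 154 hormone-free CPM. Ndufa4l2 was detected in the 2 libraries with the higher sums. Cox4i2 was detected in 1 of these, WT at 1 month, and also in WT at 6 months, where the sum was 11.6. What mesenchymal RNA contributed was not tested. Implied free RNA, taken from insulin, was 13.7% to 36.2% of the macrophage-like UMIs, and with it subtracted 56 members were lower, against 37.

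**Figure D3:**
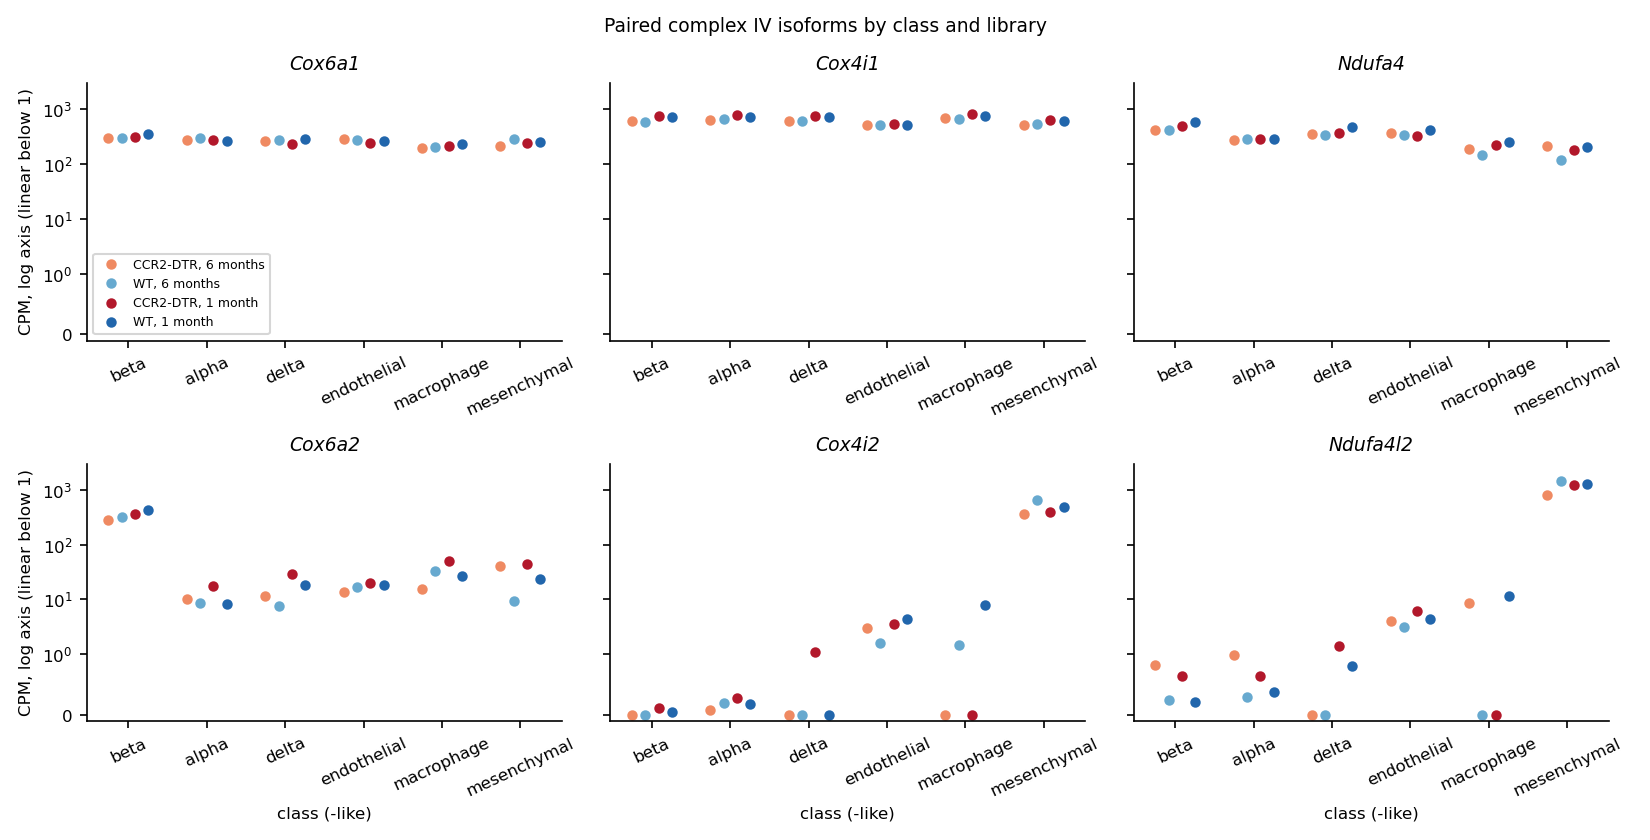
Levels of 3 pairs of complex IV genes in each class and library (CPM of UMIs outside hormone genes, log axis, linear below 1): the common form in the top row and Cox6a2, Cox4i2 and Ndufa4l2 in the bottom row. Cox6a2 sits between 281.6 and 433.5 CPM in beta-like cells and at 49.5 or below in the other 4 classes tested, and Cox4i2 and Ndufa4l2 are high in mesenchymal-like cells, from 359.4 and 796 CPM upward.

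Other genes of the pathway were read from a list of 67. Their counts stand beside 29.4% of all genes higher and 28.6% lower against alpha-like cells, and 27.7% and 26.9% against delta-like cells. Of 14 citrate cycle enzymes, 8 were higher and 1 lower in beta-like than in alpha-like cells, and 8 and 0 against delta-like cells. Idh2, mitochondrial isocitrate dehydrogenase, was 0.92 and 1.02 higher, and Ogdh, a subunit of oxoglutarate dehydrogenase, 0.67 and 0.64. Among 8 carriers, cytochrome c and related genes, 2 were higher and 5 lower than in alpha-like cells, and 4 and 2 against delta-like cells. Cytochrome c (Cycs, 0.62 and 0.66) and cytochrome c1 (Cyc1, 0.68 and 0.68) were higher, and Ucp2, an inner membrane carrier, lower (-0.90 and -1.16). Cyc1 is a complex III subunit that the choice by symbol left out of the complex III counts above. Among 34 other assembly factors, 14 were higher and 1 lower than in alpha-like cells and 8 and 5 against delta-like cells. Uqcc2, a complex III assembly factor, was 0.81 and 1.02 higher. Of 11 biogenesis and mitochondrial transcription genes, 3 were higher and 4 lower than in alpha-like cells and 3 and 2 against delta-like cells. Ppargc1a, a coactivator of mitochondrial genes, was lower in beta-like than in alpha-like (-2.18) and delta-like cells (-0.95), on an average of 2.12 ± 1.09 TMM-adjusted CPM in beta-like cells.

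In endothelial-like cells, where 40.4% of all genes were lower and 37.2% higher, the same lists gave 8 lower and 4 higher of 14 citrate cycle enzymes, 17 and 5 of 34 assembly factors, 4 and 2 of 8 carriers and 5 and 4 of 11 biogenesis genes. The biogenesis counts were near the shares of all genes. Lrpprc, which stabilises mitochondrial mRNA, was 1.34 lower, and Polg, the mitochondrial DNA polymerase, 1.27 higher. In macrophage-like cells, where 31.8% of all genes were higher and 33.4% lower, 4 citrate cycle enzymes were higher and 4 lower, near those shares. Of the assembly factors 1 was higher and 7 lower, of the carriers 4 and 2, and of the biogenesis genes 2 and 1. Ucp2 reached 1562 ± 285 TMM-adjusted CPM in macrophage-like cells, against 302 ± 18.6 over the endocrine classes (log2 2.45, adjusted p = 1.13e-14), and Esrra, a nuclear receptor of mitochondrial genes, was 1.99 higher.

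The genotype comparison sets toxin-treated CCR2-DTR mice against toxin-treated WT littermates. Loss of CCR2-expressing cells was not measured here. Values are ratios of hormone-free CPM between single libraries, with exact 95% intervals that cover counting error only. A member is counted as past the fold threshold when its log2 ratio is at least 0.32 above or below that of the median gene, among members with at least 50 CPM in 1 of the libraries. At 6 months the nuclear subunits summed to the same level in CCR2-DTR and WT beta-like cells (ratio 1.00, interval 0.994 to 1.006), and 0 of 78 were past the fold either way, where 1.61% of all genes were higher and 1.15% lower. The mt genes were at a ratio of 1.075 (1.072 to 1.078), with 0 of 13 past the fold; within cluster 0 the ratio turned to 0.985 and within cluster 5 it was 1.093. In the other classes at 6 months the share of nuclear subunits past the fold was no larger than that of all genes. There were 1 higher and 0 lower of 77 in alpha-like cells (2.72% and 0.849% of all genes) and 1 and 0 of 77 in delta-like cells (3.23% and 2.87%). Endothelial-like cells had 2 and 1 of 76 (7.24% and 7.09%), and macrophage-like cells, the smallest class, 11 and 4 of 76 (16.1% and 15.3%). The highest beta-like members were mt-Nd3 (2376 CPM in CCR2-DTR, 1941 in WT, ratio 1.22), Atp5mpl (1.21), Atp5k (1.17), Ndufb1-ps (1.12) and Uqcr11 (1.11). Among the lowest were mt-Atp8 (0.810), Ndufs4 (0.833), mt-Nd6 (0.873) and Cox6a2 (0.888).

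At 1 month the nuclear subunits summed to less in CCR2-DTR than in WT beta-like cells, at a ratio of 0.888 (0.885 to 0.892). Of 79 past the floor, 26 were lower past the fold and 0 higher, where 3.21% of all genes were lower and 1.22% higher. The ratio was 0.838 for complex III, 0.859 for IV, 0.891 for I, 0.917 for V and 1.034 for II, the complex with no subunit past the fold. The mt genes together were at 1.011 (1.009 to 1.013). Most beta-like cells were in cluster 5 in CCR2-DTR (1272 of 2372) and in cluster 0 in WT (1727 of 2973). Within the clusters the nuclear ratio was 0.887 (cluster 0) and 0.902 (cluster 5), and the mt ratio 1.042 and 0.963, which turned in cluster 5. With all UMIs as the total the nuclear ratio was 1.003 and its sign turned. Hormone UMIs then enter the total, and they were 49.4% of UMIs in CCR2-DTR and 55.2% in WT beta-like cells. Insulin alone took 42.6% and 49.98%. Relative to the median gene the nuclear ratio was 0.883.

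The lowest members at 1 month were Ndufa3 (45.1 CPM in CCR2-DTR and 72.7 in WT beta-like cells, ratio 0.620, interval 0.569 to 0.675), mt-Nd3 (1383 and 2201, 0.629), Atp5e (381.6 and 598.8, 0.637), mt-Nd4l (225.4 and 347.4, 0.649) and Uqcr11 (191.7 and 291.3, 0.658). The highest were Ndufv2, a core subunit of complex I (163 and 132 CPM, 1.24), Ndufa9 (1.16), Ndufv1 (1.16, a core subunit), Uqcrc2 (1.15) and Atp5f1 (1.15). The other classes of the same 2 libraries gave ratios of nuclear sums of 0.951 in alpha-like, 0.876 in delta-like, 0.933 in endothelial-like and 0.946 in macrophage-like cells. In alpha-like cells 19 of 77 subunits were lower and 1 higher past the fold (3.71% and 1.53% of all genes), in delta-like cells 32 and 0 of 78 (4.87% and 2.49%), in endothelial-like cells 20 and 1 of 75 (7.18% and 6.80%) and in macrophage-like cells 25 and 3 of 76 (16.0% and 15.9%). Of 86 members past the floor in all 5 classes, 13 were lower past the fold in all 5 and 0 higher, where 2.34% of all genes were lower and 0.0478% higher in all 5. The 13 were Atp5e, Atp5k, Atp5md, Cox6b1, Cox7c, Ndufa1, Ndufa2, Ndufa3, Ndufb1-ps, Uqcr10, Uqcr11, mt-Nd3 and mt-Nd4l. The classes share the same 2 libraries and are not independent. Of 18 other genes under 500 bases, 11 were lower in all 5. At 6 months 0 of 86 members were past the fold in all 5 classes in either direction (0.166% of all genes higher and 0.111% lower).

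Transcript length moved with this difference. A length was found for 106 of the 107 members (Ndufb1-ps, not annotated as protein-coding, had none). Each length is that of a single transcript, the longest protein-coding one of the gene with principal transcripts taken first. Which transcript the cells used was not examined. Atp5md, lower in all 5 classes above, was thereby placed at 2733 bases, Ndufb2 at 4371 and Atp5g1 at 4715. Of 94 nuclear genes, assembly factors included, 8 had transcripts under 500 bases and 46 of 500 to under 1000. In beta-like cells at 1 month, 5 of the 5 members under 500 bases that passed the floor were lower past the fold, with a median log2 ratio of -0.56 relative to the median gene. Among 26 other genes of that length 80.8% were lower past the fold and the median was -0.49. From 500 to under 1000 bases, 15 of 41 members (median -0.27) and 9.80% of 296 other genes (median 0.02) were lower past the fold. From 1000 to under 2000 bases 4 of 25 members and 1.22% of 741 other genes were, and above that 2 of 9 members and 1.02% of 2557 others. Other genes under 500 bases were lower past the fold for 76% in alpha-like, 71.4% in delta-like, 78.9% in endothelial-like and 78.3% in macrophage-like cells. At 6 months 0 beta-like members of any length were past the fold. The 5 nuclear members under 500 bases then had a median of 0.13, with 0 below the median gene. Of 27 other genes of that length 18.5% were below it, and their median was 0.10.

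The shortest mt-encoded members were also the lowest, though not in order of length among themselves. mt-Nd3 (348 bases), mt-Nd4l (297) and mt-Atp8 (204) were at 0.629, 0.649 and 0.695 and mt-Nd6 (519) at 0.794 in beta-like cells at 1 month, and the 9 longer mt genes lay between 0.957 and 1.049. mt-Atp8 overlaps mt-Atp6 by 43 bases and mt-Nd4l overlaps mt-Nd4 by 7, on the same strand, so reads in the overlaps cannot be assigned to 1 gene. The part that length plays in the genotype difference was not tested.

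**Figure D4:**
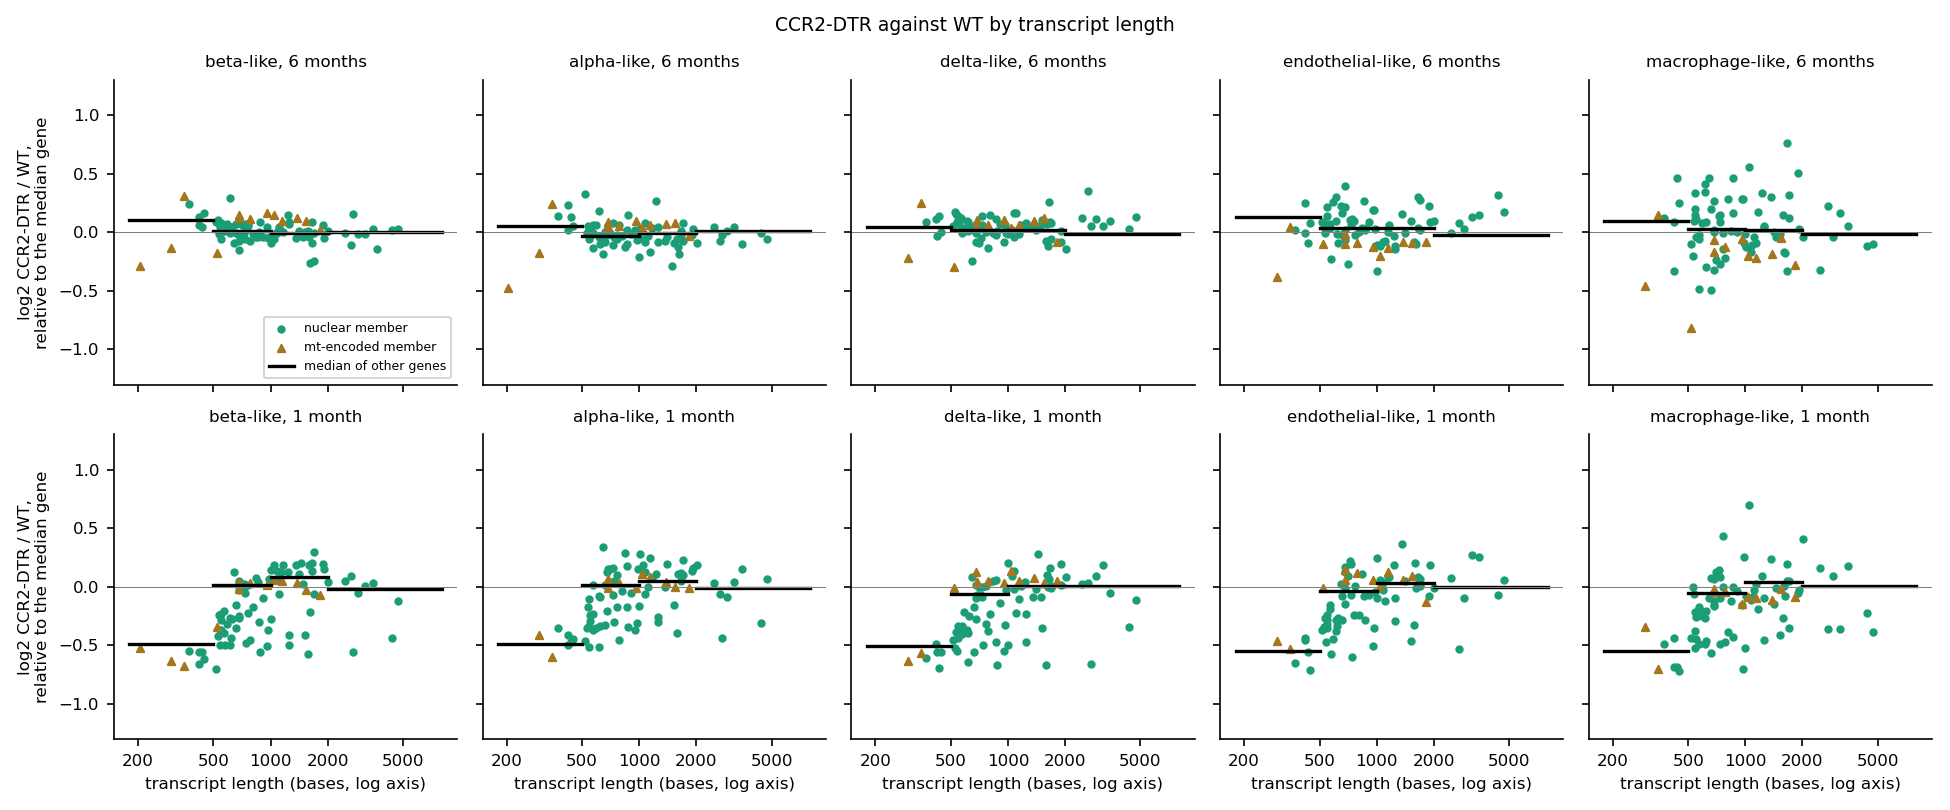
log2 ratio of CCR2-DTR over WT relative to the median gene (vertical axis) against transcript length in bases (log axis), for nuclear and mt-encoded members in the 5 classes, at 6 months (top) and 1 month (bottom); black lines are the medians of all other genes in each length range. At 1 month the nuclear members under 500 bases and the other genes of that length have medians between -0.69 and -0.44 in every class. At 6 months their medians lie between 0.02 and 0.13.

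The age comparison was made within each genotype. Depth per cell differed along with age, since every class had a larger median UMI count in the older library of its genotype. For beta-like cells the CCR2-DTR medians were 14333.5 (younger) and 28023 (older), and the WT medians 17324 and 29042. For alpha-like cells they were 8073 and 18034 in CCR2-DTR, and 8328 and 20325 in WT. The part of depth in the age ratios was not tested. In CCR2-DTR beta-like cells the nuclear sum at 6 months was 0.951 of that at 1 month, with 12 of 79 subunits higher and 27 lower past the fold, where 9.93% of all genes were higher and 12.7% lower. In WT beta-like cells it was 0.845, with 0 higher and 28 lower of 79, where 7.39% of all genes were higher and 8.0% lower. The mt sums were at 1.006 and 0.946. Within cluster 0 the CCR2-DTR nuclear ratio turned to 1.019 and the mt ratio to 0.873, against 0.953 and 1.01 within cluster 5. In WT the nuclear ratios were 0.876 and 0.867 and the mt ratios 0.923 and 0.8905 in clusters 0 and 5. Most 6-month beta-like cells were in cluster 5 (865 of 1142 in CCR2-DTR and 478 of 593 in WT), as were those of CCR2-DTR at 1 month, while those of WT at 1 month were mostly in cluster 0. The CCR2-DTR age ratio and the genotype ratio at 1 month share the CCR2-DTR library of that age, and the WT pair shares the WT one.

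mt-Atp8 was the highest member in both genotypes: 84.9 CPM at 6 months and 38.8 at 1 month in CCR2-DTR (2.19), and 104.8 and 55.4 in WT (1.89). mt-Nd6 (1.599 and 1.46) and mt-Nd4l (1.80 and 1.3) were also high in both, and mt-Nd3 (1.72) and Ndufa5 (1.604) in CCR2-DTR, whereas the other leading members in WT were Ndufaf4 (1.21) and mt-Nd5 (1.20). At the low end were the ATP synthase subunit Atp5o (0.601 in CCR2-DTR and 0.665 in WT), Ndufc2 (0.619 and 0.677) and Ndufa9 (0.633 and 0.708), with Uqcrfs1 (0.680) in CCR2-DTR and Atp5g1 (0.629) in WT.

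Transcripts under 500 bases were mostly higher with age in CCR2-DTR beta-like cells. Of the members, 4 of 5 were higher past the fold, as were 77.8% of 27 other genes of that length. From 500 to under 1000 bases, 9 of 41 members were lower and 7 higher, against 28.3% and 9.76% of 297 others. From 1000 to under 2000 bases 16 of 25 members were lower and 1 higher, against 27.2% and 5.04% of 754 others. Above that, 2 of 9 members were lower and 0 higher, against 6.67% and 9.69% of 2714 others. In WT 2 of 5 members under 500 bases were lower past the fold and 0 higher, against 11.1% lower and 7.41% higher among 27 other genes of that length. Across all 5 classes of CCR2-DTR, 9 of 86 members were higher past the fold (Atp5e, Atp5k, Cox6c, Cox7c, Ndufa3, Ndufb1-ps, Uqcr10, Uqcr11 and mt-Nd3) and 1 lower (Ndufb9), where 2.78% of all genes were higher and 0.718% lower in all 5. Of 16 other genes under 500 bases, 12 were higher in all 5. In WT it was 0 of 85 members in either direction (0.360% of all genes higher and 0.154% lower). Outside beta-like cells, the nuclear subunits higher in CCR2-DTR were a larger share than of all genes in 3 classes and not in macrophage-like cells, and those lower in WT were so in delta-like and macrophage-like cells. In CCR2-DTR, 22 of 77 were higher and 6 lower in alpha-like cells (8.43% and 6.49% of all genes), 21 and 5 of 78 in delta-like (11.3% and 8.69%), 24 and 5 of 76 in endothelial-like (16.0% and 13.7%) and 17 and 10 of 76 in macrophage-like cells (25.2% and 24.2%). In WT, 0 of 77 were higher and 1 lower in alpha-like cells (4.62% and 5.51%), 0 and 13 of 77 in delta-like (9.86% and 8.69%), 0 and 6 of 76 in endothelial-like (11.3% and 10.3%) and 5 and 23 of 75 in macrophage-like cells (22.8% and 22.4%). The part of length was not tested.

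**Figure D5:**
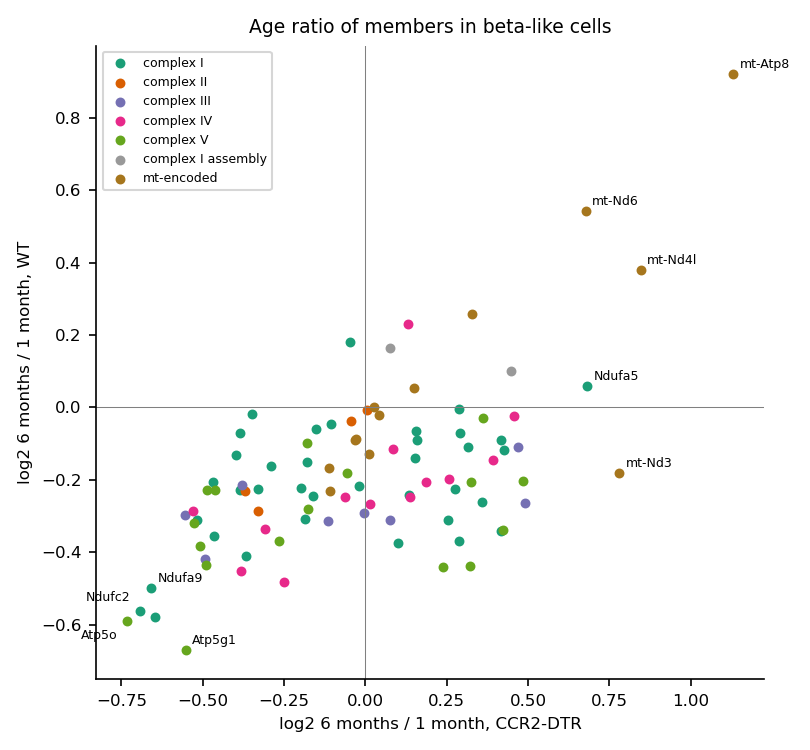
log2 ratio of 6 months over 1 month in beta-like cells for each member past the floor, in CCR2-DTR (horizontal) and WT (vertical), coloured by complex; each axis is 1 library over 1 library of hormone-free CPM. mt-Atp8, mt-Nd6 and mt-Nd4l are high on both axes, Atp5o, Ndufc2 and Ndufa9 are low on both, and most nuclear members lie below 0 on the WT axis.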

How the data were processed

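The authors deposited unnormalised UMI counts for every gene in every cell barcode, made with Cell Ranger 5.0.1 on mm10, per the submitters' processing notes. The remaining deposited files are of another kind (unit: other), naming barcodes and genes with no measurement. Read chemistry, annotation release and the handling of introns: not given in the sources used here.

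Barcodes were kept from 1000 UMIs and 500 genes up and to 15% mitochondrial UMIs, and those with a Scrublet score over 0.25 (a limit set after the data were seen) were removed. Clustering (scanpy 1.11.5, igraph 0.11.9, Python 3.11.15) used 2000 variable genes, 30 components, 15 neighbours and Leiden resolution 1. The OXPHOS, digestive enzyme and haemoglobin genes were left out. Of 19 clusters, 4 with 5231 cells stayed unnamed. Beta-like cells were clusters 0 and 5.

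UMIs were summed per class and library without the 8 hormone genes (Ins1, Ins2, Iapp, Gcg, Sst, Ppy, Pyy and Ghrl). Class contrasts used edgeR 4.0.16 (R 4.3.3), quasi-likelihood test, TMM and library as block; the script was checked on simulated data. Blocking is by library because the classes of a library come from the same pooled animals. Genotype and age ratios used 1 library per group, a floor of 50 CPM and 10 UMIs, and a fold threshold of 0.32 on the log2 scale. DESeq2 1.42.0 was an alternative. Transcript lengths came from GENCODE annotation of GRCm38, taking the longest protein-coding transcript of a gene, principal ones first.

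Named genes were the 5 highest and 5 lowest members per contrast or beta-like ratio, the mt genes, paired isoforms and core subunits; 1 of them is not reported here. The members and lists were chosen with earlier results of these data known. Intervals cover counting error only.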

Additional observations from a re-analysis of the deposited data

Results flagged for a closer look

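The following members moved past the fold threshold (0.32 on the log2 scale, relative to the median gene) in opposite directions in 2 comparisons of the same kind. The values given are plain ratios, not relative to the median gene. The share of all genes that turned in this way was not computed. In macrophage-like cells 15.3% to 25.2% of all genes were past the fold in a given direction of a given comparison. The differences were not tested, since each group is 1 library. In the age comparison (6 months over 1 month), Atp5k in beta-like cells was at 1.341 in CCR2-DTR and 0.7908 in WT, and Ndufa3 at 1.336 and 0.7896. Ndufb1-ps was at 1.374 in CCR2-DTR and 0.7554 in WT endothelial-like cells, and at 1.338 and 0.6773 in macrophage-like cells.

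In the genotype comparison (CCR2-DTR over WT), Ndufa3 in alpha-like cells was at 1.242 at 6 months and 0.7381 at 1 month. Ndufb1-ps was at 1.394 and 0.7665 in endothelial-like cells and at 1.45 and 0.7345 in macrophage-like cells, in the same order. In macrophage-like cells Cox5b was at 1.399 at 6 months and 0.7901 at 1 month, and Uqcr10 at 1.402 and 0.6614. The age and genotype values of a gene share libraries. Atp5k, Ndufa3, Ndufb1-ps and Uqcr10 are also among the 13 members lower in CCR2-DTR in all 5 classes at 1 month.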

How the results depend on the processing

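With all UMIs as the total and no TMM factors, members were 18 higher and 66 lower (beta-like against alpha-like), 15 and 81 (against delta-like) and 28 and 47 (endothelial-like); by construction hormone UMIs then enter the total. Signs turned for beta-like against alpha-like Atp5a1 -0.29, Atp5g3 -0.26, Cox6a1 -0.29, Cox7a2l -0.0084, Cox8a -0.22, Ndufs3 -0.19, Ndufs7 -0.28 and Ndufs8 -0.16. Against delta-like they turned for Atp5a1 -0.44, Atp5b -0.59, Atp5g3 -0.58, Cox6a1 -0.36, Cox6b1 -0.53, Cox7a2 -0.59, Cox7a2l -0.16, Cox7b -0.40, Cox8a -0.48, Ndufa4 -0.29, Ndufs3 -0.43, Ndufs8 -0.51, Ndufv2 -0.63, Sdha -0.51, Sdhb -0.49, Sdhc -0.15 and Sdhd -0.59, and in endothelial-like cells for Cox4i1 0.23, Cox7a2l 0.21, Ndufs7 0.13, Sdha 0.16, Sdhc 0.18 and mt-Atp8 0.041. With doublets kept, Cox6a2 in endothelial-like cells was at 0.11. The cause was not tested there or for the values below.

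Without the replicate block by library the counts were 39 higher and 9 lower, 52 and 2, 7 and 73, and 20 and 28 in the 4 class contrasts. DESeq2 gave 6 lower against delta-like. Subtracting implied free RNA, chosen after seeing the data, gave 3 higher in endothelial-like and 56 lower in macrophage-like cells. Leaving out 1 library gave 36 to 50 higher and 10 to 15 lower, 57 to 66 and 2 to 3, 5 to 9 and 74 to 77, and 19 to 22 and 31 to 35. For the class contrasts, shares of all genes were computed in the main fit only, so counts of the other fits stand without them. No paired analysis was possible because each genotype and age group is 1 library.

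In beta-like cells at 6 months, the nuclear CCR2-DTR over WT ratio was 1.01 with all UMIs, 1.014 relative to the median gene, 1.024 with each cell weighing the same, 1.032 within cluster 0 and 0.9922 within cluster 5. The mt ratio was 1.086, 1.089, 1.034, 0.9849 and 1.093 in that order and 1.08 with no mitochondrial limit. At 1 month the nuclear ratio was 1.003 with all UMIs, 0.8831 relative to the median gene and 0.9024 within cluster 5. The mt ratio was 1.141, 1.005 and 0.9633, with 1.032 for no mitochondrial limit, 1.007 for doublets kept, 0.9961 for equal cell weight and 1.042 within cluster 0. The nuclear age ratio in CCR2-DTR was 0.8909 with all UMIs, 0.9376 relative to the median gene, 0.9563 with no mitochondrial limit, 0.9582 with doublets kept and 1.019 within cluster 0. The mt one was 0.9417, 0.991, 0.9844, 0.9799 for equal weight, 0.9994 with members in clustering, 0.8727 within cluster 0 and 1.01 within cluster 5. In WT the nuclear age ratio was 0.8842, 0.8266, 0.8229 for equal weight, 0.8757 (cluster 0) and 0.8669 (cluster 5). The mt one was 0.9896, 0.9251, 0.9412 for no mitochondrial limit, 0.9407 for doublets kept, 0.942 with members in clustering, 0.9234 and 0.8905.

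In beta-like cells with a floor of 10 UMIs only, 1 of 82 nuclear subunits was higher in CCR2-DTR at 1 month and 1 of 81 at 6 months. Of all genes 9.65% and 9.63% were. At 1.5-fold, 3 of 79 were lower in CCR2-DTR at 1 month (0.610% of all genes). The CCR2-DTR age ratio had 1 higher and 4 lower of 79 (2.28% and 2.79%), and the WT one 4 lower of 79 (1.49%). Depth limits Cox4i2, Ndufa4l2 and Cox6b2, which rest on few UMIs.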
